A study of Mus musculus with 6 samples.

Results

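The 44 genes described here encode the machinery that brings new proteins into the endoplasmic reticulum (ER), removes their signal sequences, glycosylates and folds them, and adjusts that capacity to demand. They were chosen by name, with earlier results of these data known. All 44 had a row among the 19436 usable genes of the deposited table. RNA came from C57BL/6 mouse fetal liver at E14.5 (days of embryonic age), from erythroid precursors gated on an intermediate level of CD71 (the transferrin receptor) without Ter119 (a marker of later red cells). There were 3 wild type libraries and 3 labelled -77-/-, in which both alleles lack an enhancer that lies upstream of Gata2, a transcription factor of blood progenitors. No treatment is recorded, and the labels name no litter, batch or pairing and do not say whether embryos were pooled. P-values therefore reflect only how these libraries vary, which may be technical variation.

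Proteins bound for the cell surface, secretion or the lysosome enter the ER while they are being made: the signal recognition particle (SRP) and its receptor bring the ribosome to the Sec61 channel, signal peptidase removes the signal, and the oligosaccharyltransferase adds a preformed glycan to asparagine. Calnexin, calreticulin and the disulfide isomerases then fold the chain. When unfolded protein builds up, sensors in the ER membrane start the unfolded protein response, in which the transcription factors XBP1 and ATF6 raise genes of folding and of ER-associated degradation.

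The libraries held 16516338 to 20468899 reads, recovered from the authors' normalized values. Gata2 itself, at 128, 87.8 and 61.5 normalized counts in wild type and 74.2, 26.2 and 34.2 in -77-/-, did not pass the test (adjusted p = 0.18 by limma), and since the lost element is an enhancer this level alone does not check the label. The erythroid label held less well for -77-/-: all 13 erythroid markers examined fell, and their summed normalized count was 41406 to 44151 in wild type and 5532 to 9179 in -77-/-. Of 12 monocyte and macrophage markers 11 rose (sums 1425 to 2652 in wild type, 29394 to 40753 in -77-/-), and of 12 granulocyte markers 6 rose and 3 fell (14578 to 25339 and 45722 to 49862). Mpo, the myeloperoxidase of granules, carried the rise in the sum: without it, a step added after the values were seen, the granulocyte sums overlapped, at 6049 to 10590 in wild type and 8689 to 9105 in -77-/-. Of 8 dendritic cell markers 6 rose and 1 fell (1112 to 1394 and 7312 to 7688). Of 11 markers of B lymphoid and antibody-secreting cells 7 rose, none fell and 4 did not pass (1337 to 1552 and 3427 to 6231). Ighm and Prdm1 were among those that rose (log2 fold changes 2.28 and 3.49). Sdc1 and Jchain did not pass, and Jchain, which joins antibody units, was at 0 in 3 of the 6 libraries. Sums of liver parenchyma markers were low and overlapped, with the highest, 942, in -77-/- replicate 3. Endothelial sums were 114 to 320 in wild type and 475 to 565 in -77-/-, with 1 of 4 tested markers higher. Mast cell and basophil sums were 239 to 341 and 153 to 196, with 1 of 4 lower. Megakaryocyte sums overlapped, at 461 to 708 and 279 to 624. The lists whose sums differ between genotypes move with the results below, and their part in them was not tested. In bulk samples, fewer cells of a type and less RNA per cell cannot be told apart.

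The members that rose in -77-/- included 5 of the 7 lectin chaperones and disulfide isomerases and all 4 stress-inducible lumen proteins. All 3 genes of the group of sensors and factor (Ern1, Atf6 and Xbp1) and both degradation genes rose too, whereas none of the 8 targeting and 6 oligosaccharyltransferase genes rose. Of the 44 genes 20 rose, 4 fell and 20 did not pass at an adjusted p of 0.05 by limma. Over all 15821 genes tested, 32.2% passed, 16.9% as higher and 15.2% as lower in -77-/-. With edgeR, where 29.9% of tested genes passed, and with DESeq2, where 33.1% did, the members that passed again numbered 24. The median log2 fold change of the 44 genes was 0.46, against 0.10 for all tested genes.

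Most of the 44 genes are well counted, though Srp54a and Sec61g are not. The median of the 44 genes' means in the higher genotype was 2647 normalized reads, against 289 over all tested genes. Among genes with such a mean of at least 1000, a level chosen after the values were seen, 57.7% passed, 23.1% as higher and 34.5% as lower. Of the 34 members at that level 22 passed, 19 as higher and 3 as lower, and the difference from the other genes was not tested. At least 2-fold higher were 10 members (12.6% of all tested genes), and none that passed was 2-fold lower (6.11%). The libraries of the genotypes did not overlap in 26 members (46.5% of tested genes): -77-/- lay above in 21 (25%) and below in 5 (21.4%).

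**Figure D1:**
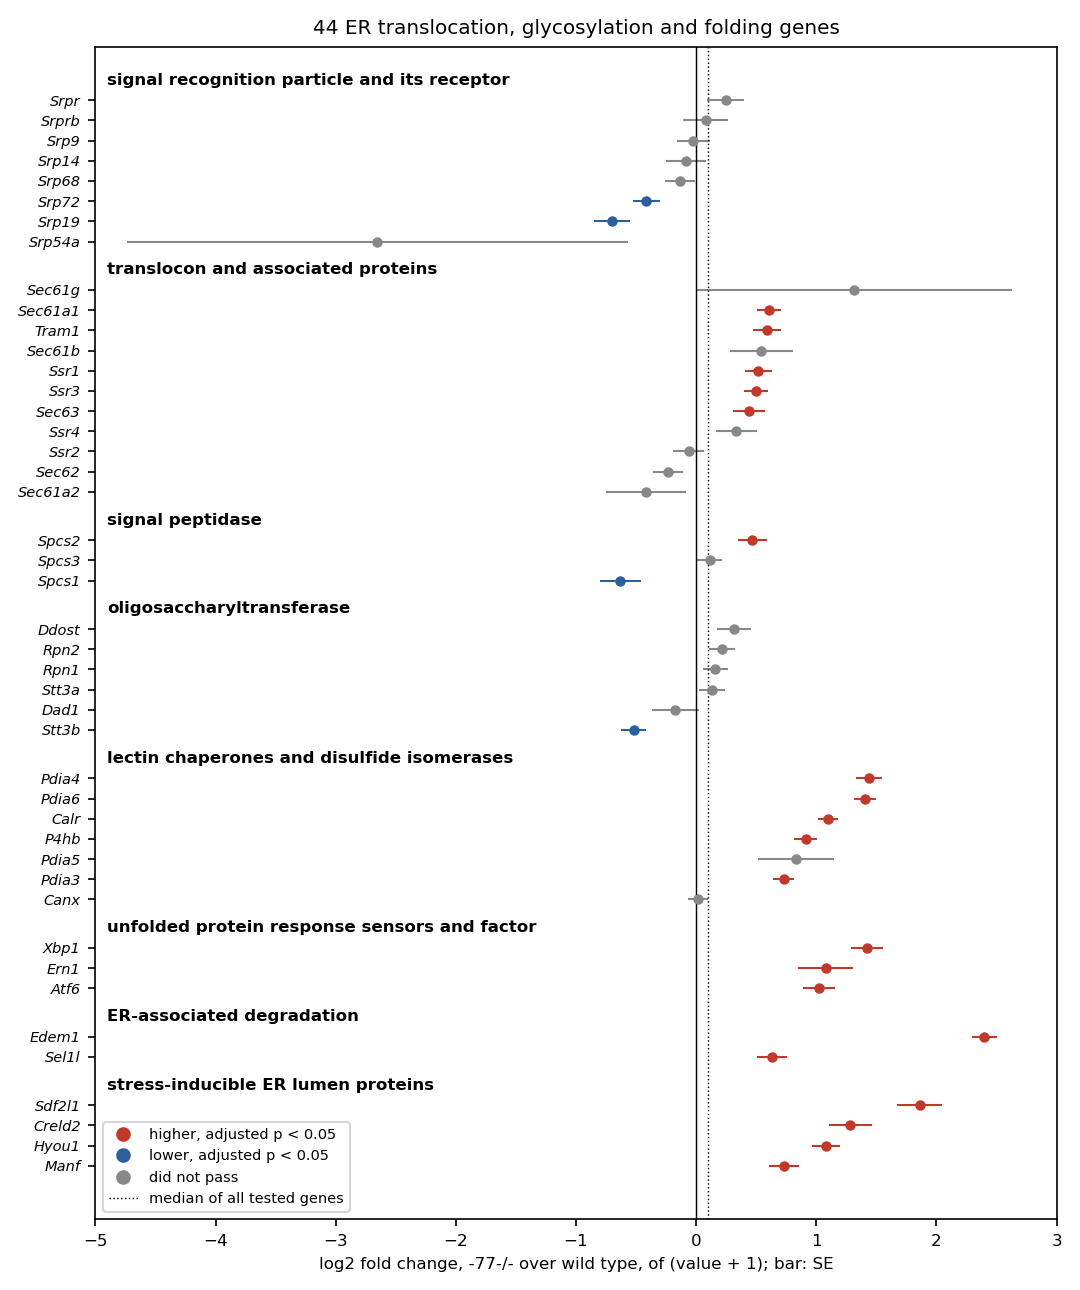
Log2 fold change (-77-/- over wild type, of value + 1, bar for the SE by limma) of each of the 44 genes, grouped by role, with red and blue for genes higher and lower at an adjusted p under 0.05 and a dotted line at the median of all tested genes. Sensors with Xbp1, degradation genes and lumen proteins lie between 0.63 and 2.40. SRP and oligosaccharyltransferase genes lie on both sides of 0, and the widest bars belong to Srp54a and Sec61g.

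The sensors Ern1 and Atf6 and the factor Xbp1, 3 genes taken as 1 group, were all at least 2-fold higher (median log2 fold change 1.08). Ern1 encodes IRE1-alpha, the membrane sensor that splices Xbp1 mRNA. Its normalized counts in wild type replicates 1, 2 and 3 were 347, 444 and 287, and in the same order of -77-/- replicates 589, 821 and 862 (log2 fold change 1.08, standard error 0.23, adjusted p = 0.0018 by limma). Atf6, a membrane-held transcription factor released by cleavage in the Golgi, had 848, 927 and 874 in wild type and 1815, 1698 and 1867 in -77-/-. Its mean rose from 883 ± 40.2 to 1793 ± 86.4 (SD, 3 libraries, as for every mean given here), with log2 fold change 1.02, standard error 0.13, adjusted p = 3.0e-05 by limma. Xbp1, the factor that IRE1 activates and a driver of ER expansion in secretory cells, went from 711, 767 and 741 to 1994, 2008 and 1959 (log2 fold change 1.43, standard error 0.13, adjusted p = 9.2e-07 by limma). In all 3 genes every -77-/- library was above every wild type library. The table counts whole genes, so spliced and unspliced Xbp1 mRNA are not separated.

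The degradation genes (2 members, both higher) held the largest fold change among the members that passed. Edem1 encodes a lumen protein that hands misfolded glycoproteins with trimmed mannose to disposal, and is a known XBP1 target. It stood at 1197, 1274 and 1247 in wild type and 6389, 6614 and 6603 in -77-/-, so that its libraries hardly varied within a genotype and lay far apart between them. The mean rose from 1239 ± 39.1 to 6536 ± 127, a ratio of 5.27 (log2 fold change 2.40, standard error 0.11, adjusted p = 6.5e-10 by limma), and 11.2% of all tested genes had a higher log2 fold change. Sel1l, the adaptor of the HRD1 ubiquitin ligase that moves such proteins out of the ER, had 1949, 1961 and 1627 in wild type and 2596, 2796 and 3193 in -77-/-. It rose too, by less (log2 fold change 0.63, standard error 0.13, adjusted p = 0.0013 by limma), again without overlap.

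Each of the 4 stress-inducible lumen proteins was higher (median log2 fold change 1.18), without overlap between genotypes. Sdf2l1, a partner of the DnaJ cochaperones of the ER, had 533, 422 and 716 in wild type and 2135, 1761 and 2059 in -77-/- (log2 fold change 1.86, standard error 0.19, adjusted p = 1.9e-06 by limma). Creld2, a lumen protein with disulfide isomerase activity, went from 507, 449 and 385 to 1022, 1181 and 1052 (log2 fold change 1.28, standard error 0.18, adjusted p = 4.9e-05 by limma). Hyou1 encodes the large Hsp70-type nucleotide exchange factor of the lumen. It had 2958, 2886 and 2591 in wild type and 5988, 5194 and 6749 in -77-/- (log2 fold change 1.08, standard error 0.12, adjusted p = 4.6e-06 by limma). Manf, a lumen protein secreted under stress that binds the chaperone BiP, had the smallest change of the 4, from 1755, 1864 and 1467 to 2858, 2667 and 2896 (log2 fold change 0.73, standard error 0.13, adjusted p = 3.5e-04 by limma). The strand setting of the counting is not given, and in the GRCm38 gene models (GENCODE M21) 6.74% of the exon bases of Manf also lie in an antisense transcript.

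Among the 7 lectin chaperones and disulfide isomerases 5 rose, none fell and 2 did not pass (median log2 fold change 0.91). Calr encodes calreticulin, the soluble lectin chaperone and calcium buffer of the lumen, and had 15816, 14859 and 14896 in wild type and 33611, 30138 and 33669 in -77-/-. Its mean rose from 15190 ± 542 to 32473 ± 2022 (log2 fold change 1.09, standard error 0.08, adjusted p = 1.4e-07 by limma). Canx encodes calnexin, the membrane-bound lectin that binds the same trimmed glycans, and had 22928, 25067 and 23100 in wild type and 24854, 22651 and 24362 in -77-/-. The genotypes overlapped for Canx, whose log2 fold change was 0.02, with a 95% interval of -0.16 to 0.19 (adjusted p = 0.90 by limma), whereas the interval for Calr was 0.91 to 1.27. Under quantile normalization Canx passed as higher (adjusted p = 0.0371 by limma, within 0.0371 to 0.989 over its alternatives). On the log2 scale that normalization moved Canx from 0.02 to 0.19, while the median of all tested genes went from 0.10 to -0.07.

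The disulfide isomerases form and rearrange disulfide bonds in the lumen. Pdia4 had 2070, 2361 and 2226 in wild type and 6407, 5700 and 5935 in -77-/- (log2 fold change 1.44, standard error 0.11, adjusted p = 9.6e-08 by limma). Pdia6, which also binds the sensor IRE1, had 4269, 4463 and 4171 in wild type and 11853, 10913 and 11470 in -77-/- (log2 fold change 1.41, standard error 0.09, adjusted p = 2.9e-08 by limma). In both genes each -77-/- library was more than 2 times the highest wild type library. P4hb, the founding member of the family and the beta subunit of prolyl 4-hydroxylase, rose from 6695, 7053 and 8037 to 13213, 13615 and 14030 (log2 fold change 0.91, standard error 0.10, adjusted p = 3.5e-06 by limma). Pdia3, the partner of calnexin and calreticulin and a part of the MHC class I loading complex, rose from 7161, 6571 and 7014 to 11517, 11292 and 11528 (log2 fold change 0.73, standard error 0.09, adjusted p = 1.7e-05 by limma). For neither P4hb nor Pdia3 did the genotypes overlap. Pdia5 had 153, 132 and 116 in wild type and 196, 244 and 276 in -77-/-, without overlap, but missed the threshold (log2 fold change 0.83, standard error 0.32, adjusted p = 0.058 by limma). It passed without trend and robust moderation and with a minimum mean of 50 (adjusted p = 0.0425 and 0.0436 by limma, within 0.0425 to 0.214).

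**Figure D2:**
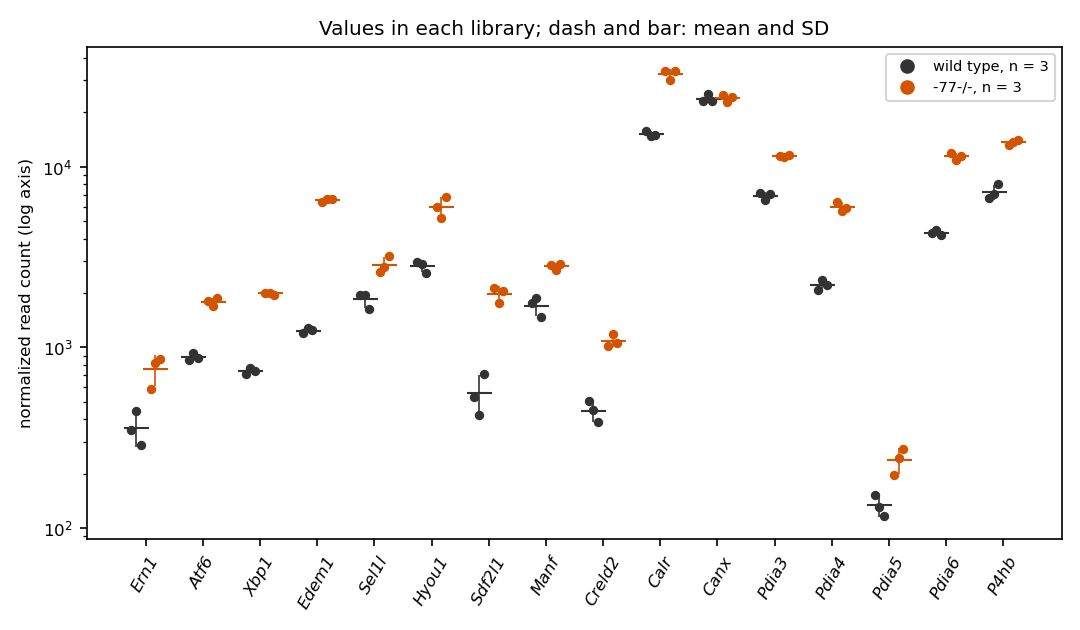
Normalized read count (log axis) of the sensor genes, Xbp1 and the degradation, lumen and folding genes in each library. Wild type is in black and -77-/- in orange (n = 3 each), with a dash and bar for mean and SD. For every gene drawn except Canx, whose libraries lie at 22928 to 25067 in wild type and 22651 to 24854 in -77-/-, all -77-/- points are above all wild type points.

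The ER stress element (ERSE) is a promoter sequence through which ATF6 and XBP1 are known to act together with NF-Y: CCAAT, then 9 bases of any kind, then CCACG. Both strands of RefSeq promoter windows were searched for it (build GRCm38.p6, 250 bases before to 50 after each start, whereas the submitters' processing notes name mm9). Of the 44 members 35 had a window. Srp19, Srp68, Sec61a1, Tram1, Ssr2, Spcs3, Atf6, Hyou1 and Manf were not matched. The element stood in 4 of the 35, Calr, Pdia6, Creld2 and Canx. Counted per gene, as for the members, it stood in 0.137% of all 27025 genes with a window. Counted per window, it stood in 0.119% of all 32851 windows. The 250 bases upstream of these 4 starts are shown because 3 of the genes rose and Canx did not pass. They lie at chr8:84846932-84847181 on the minus strand (Calr), chr12:17266339-17266588 on the plus strand (Pdia6), chr15:88819396-88819645 on the plus strand (Creld2) and chr11:50325674-50325923 on the minus strand (Canx). Each reads 5′ to 3′ along its gene with the element in capitals, and in Calr and Creld2 the element is on the opposite strand, so its reverse complement is what stands there.
Calr: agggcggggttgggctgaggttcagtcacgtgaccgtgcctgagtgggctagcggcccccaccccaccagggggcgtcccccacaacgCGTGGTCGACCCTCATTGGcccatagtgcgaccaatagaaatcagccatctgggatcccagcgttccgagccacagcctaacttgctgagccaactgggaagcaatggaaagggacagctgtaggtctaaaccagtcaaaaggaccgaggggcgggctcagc
Pdia6: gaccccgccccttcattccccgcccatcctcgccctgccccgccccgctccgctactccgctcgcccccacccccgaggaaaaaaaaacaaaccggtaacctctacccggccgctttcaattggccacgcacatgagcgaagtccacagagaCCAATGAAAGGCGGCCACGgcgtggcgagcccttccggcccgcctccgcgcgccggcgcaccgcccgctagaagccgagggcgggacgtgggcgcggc
Creld2: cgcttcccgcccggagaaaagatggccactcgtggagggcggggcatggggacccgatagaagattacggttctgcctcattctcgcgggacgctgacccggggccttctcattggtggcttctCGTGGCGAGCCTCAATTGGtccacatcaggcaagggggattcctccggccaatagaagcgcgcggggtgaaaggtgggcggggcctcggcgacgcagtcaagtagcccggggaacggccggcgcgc
Canx: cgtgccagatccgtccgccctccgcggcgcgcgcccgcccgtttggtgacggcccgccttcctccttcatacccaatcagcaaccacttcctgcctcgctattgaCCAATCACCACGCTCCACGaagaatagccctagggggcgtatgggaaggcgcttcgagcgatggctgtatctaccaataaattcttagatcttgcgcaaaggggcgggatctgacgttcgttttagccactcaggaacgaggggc

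The element covered bases 162 to 144 upstream of the start in Calr, 98 to 80 in Pdia6, 126 to 108 in Creld2 and 145 to 127 in Canx. All 10 fixed letters are thus present in Canx as well. With 1 of the 10 letters allowed to differ, a search added after the values were seen, 9 of the 35 members held it. So did 1.72% of all genes with a window (1.5% of all windows). The other 5 were Pdia3, Pdia4, Sel1l, Rpn2 and Sec61g, and of the 9 genes 6 rose and 3 did not pass. Of the 26 members with a window but without this looser match, 9 rose, 3 fell and 14 did not pass, and 12 of the 31 without the full element rose, so most of the members that rose and had a window lack it. A second ER stress element (ATTGG, 1 base of any kind, CCACG) and the core of the unfolded protein response element (TGACGTGG) stood in no member's window. They stood in 0.0444% and 0.714% of all genes with a window (0.0365% and 0.676% of all windows). Among 122 other ER genes with a window, 7 held the full element, and of these Hsp90b1, Hspa5, Ero1lb and Dnajc3 rose and 3 did not pass. The second element stood in 3 of the 122, of which 2 rose and 1 did not pass. The core stood in 8, of which 7 were tested, and 3 rose and 4 did not pass. A match is a string of letters and no measure of binding.

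Of the 11 translocon genes 5 rose, none fell and 6 did not pass (median log2 fold change 0.50). Sec61a1, the pore subunit of the channel, had 2716, 2757 and 2854 in wild type and 4304, 4165 and 4194 in -77-/- (log2 fold change 0.60, standard error 0.10, adjusted p = 3.1e-04 by limma), though 17.3% of its exon bases are shared with an antisense transcript. Tram1, a membrane protein beside the channel that helps signal sequences insert, had 2978, 2885 and 3520 in wild type and 4957, 4170 and 5001 in -77-/- (log2 fold change 0.59, standard error 0.12, adjusted p = 0.0013 by limma). Neither gene's libraries overlapped between genotypes. Ssr1, a subunit of the translocon-associated complex, went from 7146, 7086 and 6777 to 11035, 8340 and 10911 (log2 fold change 0.52, standard error 0.11, adjusted p = 0.0024 by limma). Ssr3, another subunit, went from 4680, 5200 and 4801 to 6533, 6750 and 7418 (log2 fold change 0.50, standard error 0.10, adjusted p = 0.0013 by limma). Both were separated by genotype, while the other subunits did not pass, Ssr2 with -0.06 and Ssr4 with 0.33 on the log2 scale. Sec63, which recruits BiP to the channel, rose (log2 fold change 0.44, standard error 0.13, adjusted p = 0.019 by limma).

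The calls of 4 genes in that group were less firm. Without trend and robust moderation Tram1, Ssr1, Ssr3 and Sec63 no longer passed (adjusted p = 0.0582, 0.0891, 0.0592 and 0.118 by limma). Sec63 also did not pass without -77-/- replicate 1 (0.0681) or without wild type replicate 2 (0.0953). Over all alternatives the adjusted p ran from 3.25e-05 to 0.0582 for Tram1, 4.75e-05 to 0.0891 for Ssr1, 9.29e-06 to 0.0592 for Ssr3 and 0.00742 to 0.118 for Sec63.

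Sec61b, a small channel subunit, had 0.54 (standard error 0.27) and passed only without wild type replicate 1 (adjusted p = 0.0395 by limma, within 0.0395 to 0.402), as Ssr4 did only without wild type replicate 3 (0.0329, within 0.0329 to 0.352). Sec62, the partner of Sec63 in import after translation, did not pass (log2 fold change -0.23, standard error 0.13, adjusted p = 0.18 by limma), although its -77-/- libraries, 1292 to 1361, all lay below those of wild type, 1507 to 1628. Sec61a2, the second pore gene, overlapped at 161 to 242 in wild type and 117 to 184 in -77-/-, and 35.9% of its exon bases are shared with Nudt5 on the opposite strand. Sec61g, the remaining channel subunit, scattered from 2.28 to 181 in wild type and 42.7 to 103 in -77-/-, so that no difference could be judged.

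Of the 8 SRP and receptor genes none rose, 2 fell and 6 did not pass (median log2 fold change -0.11). Srp19, which binds the SRP RNA and lets SRP54 join the particle, had 1524, 1581 and 2005 in wild type and 1038, 977 and 1107 in -77-/- (log2 fold change -0.70, standard error 0.15, adjusted p = 0.0017 by limma). Srp72, which sits on the same RNA with Srp68, had 4524, 5505 and 4332 in wild type and 3442, 3533 and 3736 in -77-/- (log2 fold change -0.42, standard error 0.11, adjusted p = 0.011 by limma). Neither overlapped between genotypes, but Srp68 did, with -0.14 on the log2 scale. The call of Srp72 ended without wild type replicate 2, its highest library (adjusted p = 0.0718 by limma), and without trend and robust moderation (0.121), within a range of 0.00299 to 0.121. Srp9 and Srp14, which pause translation, had -0.02 and -0.08. The receptor subunits Srpr and Srprb had 0.24 and 0.08, and 29% of the exon bases of Srprb are shared with another gene model on the same strand.

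Srp54a encodes the subunit that reads the signal sequence. It was listed with 264 reads in wild type replicate 1 and 0 in the other 5 libraries. Srp54b and Srp54c are near-identical copies between which the counting may split reads, so Srp54a is uncertain here. Taken alone, Srp54b passed as lower (log2 fold change -0.39), a call that ended in 5 of 16 alternatives, and Srp54c did not pass. Summed over the 3 copies, a step added after the values were seen, normalized counts were 5493, 5620 and 4776 in wild type and 4969, 3545 and 4680 in -77-/-, with overlap.

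The 3 signal peptidase genes went different ways (median log2 fold change 0.11). Spcs1, an accessory subunit, fell from 924, 976 and 766 to 597, 537 and 581 (log2 fold change -0.63, standard error 0.17, adjusted p = 0.011 by limma), and 19.5% of its exon bases overlap Glt8d1 on the opposite strand. Spcs2, another accessory subunit, rose from 1862, 2289 and 2032 to 3015, 2583 and 2944 (log2 fold change 0.47, standard error 0.12, adjusted p = 0.0085 by limma). The whole 95% interval for Spcs1 lay below 0 and that for Spcs2, 0.21 to 0.73, above it. The call of Spcs2 ended without trend and robust moderation (adjusted p = 0.0925 by limma, within 0.00141 to 0.0925). Spcs3, which cleavage requires, had 4048, 4178 and 4234 in wild type and 4668, 4096 and 4746 in -77-/-, with overlap and no call.

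The oligosaccharyltransferase exists in forms with different catalytic subunits, STT3A, which acts at the channel during translation, and STT3B, which also glycosylates sites that were skipped. Of its 6 genes 1 fell and 5 did not pass (median log2 fold change 0.14). Stt3b fell from 8176, 8630 and 8849 to 6461, 5210 and 6297 without overlap (log2 fold change -0.52, standard error 0.10, adjusted p = 0.0013 by limma). Stt3a had 6435, 7649 and 6293 in wild type and 7757, 6740 and 7774 in -77-/-, with overlap. The 95% interval of its log2 fold change, -0.10 to 0.36, lies above that of Stt3b, -0.74 to -0.30. Rpn1, a shared subunit, had 3671, 4132 and 4039 in wild type and 4526, 4036 and 4670 in -77-/- and did not pass, nor did the shared subunits Rpn2 (0.22), Ddost (0.32) and Dad1 (-0.18). The call of Stt3b ended without trend and robust moderation (adjusted p = 0.0679 by limma, within 2.12e-05 to 0.0679). Under quantile normalization Rpn1, Rpn2, Stt3a and Ddost passed as higher (adjusted p = 0.0427, 0.0215, 0.0318 and 0.0297 by limma), and Ddost passed without wild type replicate 3 (0.0124). Their ranges were 0.0427 to 0.542, 0.0215 to 0.327, 0.0318 to 0.638 and 0.0124 to 0.309.

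As shares of each library, the 44 genes took 0.745%, 0.787% and 0.755% of reads in the wild type replicates and 1.15%, 1.13% and 1.21% in those of -77-/-. The lectin chaperones and disulfide isomerases went from between 0.316% and 0.328% to between 0.558% and 0.579%. The translocon group went from between 0.127% and 0.131% to between 0.178% and 0.196%. The oligosaccharyltransferase genes overlapped, at 0.134% to 0.150% in wild type and 0.140% to 0.158% in -77-/-, and the SRP group stood at 0.0704% to 0.0784% and 0.0641% to 0.0694%. By normalized count rather than share, -77-/- replicate 2 was the lowest of its genotype for 28 of 43 members (Srp54a left out). Wild type replicate 1 was the lowest of its genotype for 22. Among the 24 members that passed, the median coefficient of variation was 8.24% in wild type and 6.11% in -77-/-. The test favours genes with a low spread, so these values do not describe all 44.

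**Figure D3:**
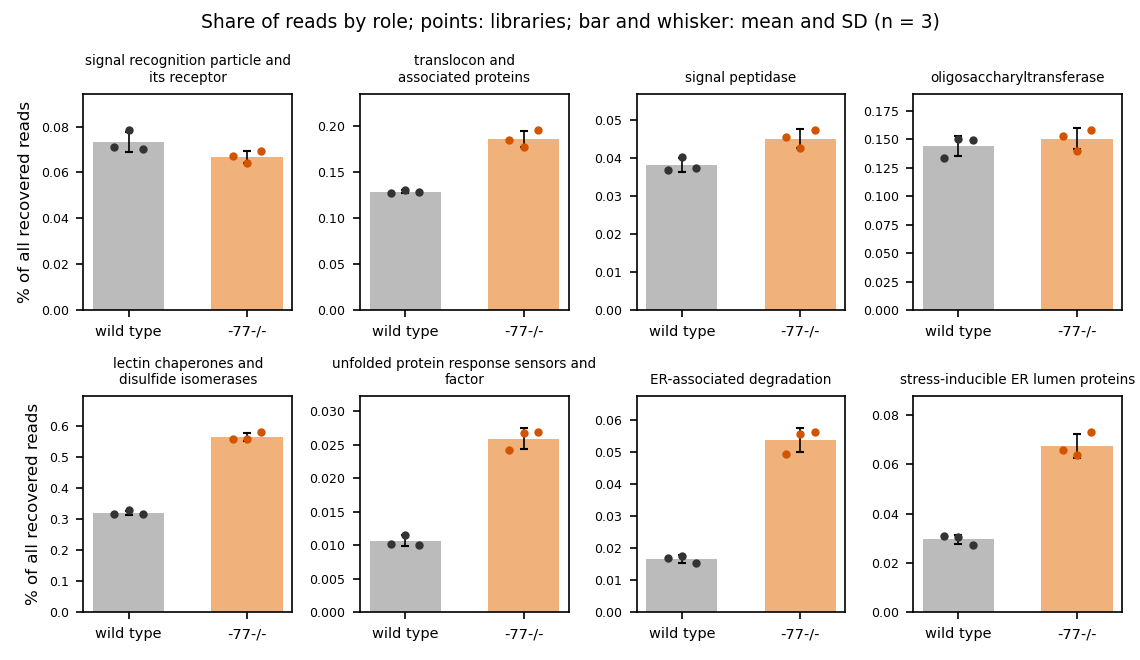
Share of all recovered reads (percent, axes from 0) taken by the members of each role, with points for libraries and bars and whiskers for mean and SD (n = 3). The panel of lectin chaperones and disulfide isomerases reaches 0.579% in -77-/- against at most 0.328% in wild type, and the oligosaccharyltransferase panel overlaps.

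Beyond these 44, 151 other ER genes in 6 lists were read from the same fit. Of 147 tested 31 rose and 14 fell, 30.6% together, close to the 32.2% of all tested genes. By direction, 21.1% were higher and 9.52% lower, against 16.9% and 15.2% of all tested genes, a difference that was not tested. The unfolded protein response and Hsp70 list had 10 higher, 3 lower and 14 not past the test (median log2 fold change 0.51). Hsp90b1, the ER Hsp90, rose from 13834, 12486 and 13273 to 31750, 29596 and 31677 (log2 fold change 1.23, standard error 0.08, adjusted p = 3.8e-08 by limma). Hspa5 encodes BiP, the central Hsp70 chaperone, which holds the sensors inactive. It had 15822, 15915 and 12060 in wild type and 21958, 18328 and 21118 in -77-/- (log2 fold change 0.49, standard error 0.11, adjusted p = 0.0037 by limma). Its 95% interval, 0.25 to 0.74, lies below that of Hsp90b1, 1.05 to 1.41. Hspa13, another ER Hsp70, had 1.58 on the log2 scale. The calls of Hspa5 and Hspa13 ended without trend and robust moderation (adjusted p = 0.115 and 0.0526 by limma, within 1.75e-04 to 0.115 and 5.05e-05 to 0.0526).

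Genes around PERK, the third sensor, did not move one way. Eif2ak3, which encodes it, rose from 330, 269 and 272 to 614, 701 and 628 (log2 fold change 1.16, standard error 0.21, adjusted p = 5.1e-04 by limma). Atf4, whose translation PERK favours, had 4874, 5383 and 4585 in wild type and 4354, 3710 and 4526 in -77-/- and did not pass (log2 fold change -0.24, standard error 0.11, adjusted p = 0.12 by limma). Asns, the asparagine synthetase and a known ATF4 target, fell from 6389, 6052 and 7867 to 1335, 666 and 990 (log2 fold change -2.81, standard error 0.24, adjusted p = 4.7e-05 by limma). Sesn2, a stress-induced regulator of mTORC1, fell from 266 ± 41.8 to 84.1 ± 27.1. Ppp1r15b, a partner of the phosphatase that reverses PERK's action, fell from 4058 ± 430 to 2877 ± 21.3, a call that ended without trend and robust moderation (adjusted p = 0.0695 by limma, within 2.17e-04 to 0.0695). Ddit3, which encodes CHOP, had 541, 419 and 130 in wild type and 541, 437 and 413 in -77-/-, with overlap. Atf3, a stress factor that is also an immediate early gene, rose from 312, 286 and 123 to 2173, 2033 and 1948 (log2 fold change 3.20, standard error 0.31, adjusted p = 2.8e-05 by limma).

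Among other known targets of the response, Dnajb9, an ER DnaJ protein, did not pass (log2 fold change 0.30, standard error 0.16, adjusted p = 0.17 by limma). Herpud1, a scaffold of the degradation complex, rose (log2 fold change 0.55, standard error 0.20, adjusted p = 0.046 by limma), but its call ended in 8 of 16 alternatives, among them edgeR, DESeq2 and the omission of any -77-/- replicate or of wild type replicate 3 (adjusted p = 0.177, 0.0541, 0.095 and 0.15 by limma, within 0.0346 to 0.178). The degradation list had 1 higher, 2 lower and 20 not past the test (median log2 fold change -0.09). Vimp (H47 in the deposited table), which ties the ATPase VCP to the ER, rose from 435 ± 71.9 to 925 ± 103. Edem3, a relative of Edem1, fell from 1924 ± 146 to 1436 ± 14.6. That call ended without trend and robust moderation (0.0855), without -77-/- replicate 3 (0.0588) and without wild type replicate 1 (0.0633) or 2 (0.0546), within a range of 0.00912 to 0.0855.

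Of the 22 tested genes of oxidative folding and glucose trimming 9 rose, 2 fell and 11 did not pass (median log2 fold change 0.49). Ero1lb, an oxidase that recharges the disulfide isomerases, rose from 92.9, 95.8 and 78.6 to 686, 586 and 593 (log2 fold change 2.79, standard error 0.27, adjusted p = 1.3e-06 by limma). Txndc5, a disulfide isomerase, rose from 721 ± 199 to 1450 ± 127. Fkbp11, a proline isomerase of secretory cells, rose from 43.6 ± 3.53 to 137 ± 38.2, a call that ended under quantile normalization (adjusted p = 0.0798 by limma) and without -77-/- replicate 1 (0.0835) or 3 (0.0676), within 0.00683 to 0.0835. Pdia2, an isomerase best known from pancreas, went the other way, from 202, 201 and 344 to 0, 4.86 and 2.56 (adjusted p = 7.1e-05 by limma). Mogs, the glucosidase that starts glycan trimming, fell from 2238 ± 239 to 1506 ± 91.7, and no longer passed without trend and robust moderation (0.0543, within 4.71e-04 to 0.0543).

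Among 27 genes that build the lipid-linked glycan or belong to the oligosaccharyltransferase, 3 rose, 1 fell and 23 did not pass (median log2 fold change 0.003). Magt1, a subunit of the STT3B form, rose from 2490, 2542 and 1799 to 4027, 3774 and 3948 (log2 fold change 0.80, standard error 0.13, adjusted p = 3.1e-04 by limma), while Stt3b fell. Dpm1, a subunit of the enzyme that makes the mannose donor, rose from 351 ± 115 to 648 ± 124, and the mannosyltransferase Alg11 fell from 786 ± 63.9 to 479 ± 95.0. The calls of Dpm1 and Alg11 ended without -77-/- replicate 2 (adjusted p = 0.0739 and 0.0573 by limma) and without trend and robust moderation, within 0.00354 to 0.0886 and 0.00604 to 0.0588.

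Of 24 further targeting and insertion genes 2 rose, 5 fell and 17 did not pass (median log2 fold change -0.22). Tram2, a relative of Tram1, rose from 184 ± 66.8 to 538 ± 96.0, and Sec11c, a catalytic subunit of signal peptidase, from 1334 ± 351 to 1920 ± 65.6. The call of Sec11c ended in 5 alternatives, among them leaving out -77-/- replicate 1 (adjusted p = 0.056 by limma) or 3 (0.0628) or wild type replicate 1 (0.0861) or 2 (0.0737), within 5.41e-04 to 0.135. Emc9 (Fam158a in the deposited table), of the membrane insertion complex, fell from 157 ± 5.54 to 29.6 ± 11.5. Naca and Btf3 form the nascent chain complex that limits access of SRP to ribosomes, and fell from 3785 ± 718 to 2142 ± 417 and from 6946 ± 386 to 5237 ± 141. Both calls ended without trend and robust moderation (0.0638 and 0.0848, within 2.66e-05 to 0.0638 and 1.28e-04 to 0.0848).

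Of 24 tested genes of export from the ER 6 rose, 1 fell and 17 did not pass (median log2 fold change 0.24). Sec24d, a cargo adaptor of the COPII coat, rose from 20.6, 18.0 and 23.9 to 243, 140 and 194 (log2 fold change 3.12, standard error 0.54, adjusted p = 3.9e-04 by limma). The cargo receptors Tmed10 and Surf4 rose from 3687 ± 235 to 6988 ± 221 and from 1815 ± 150 to 2964 ± 10.4. Tfg, which organises ER exit sites, fell from 2421 ± 33.9 to 1624 ± 61.6.

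**Figure D4:**
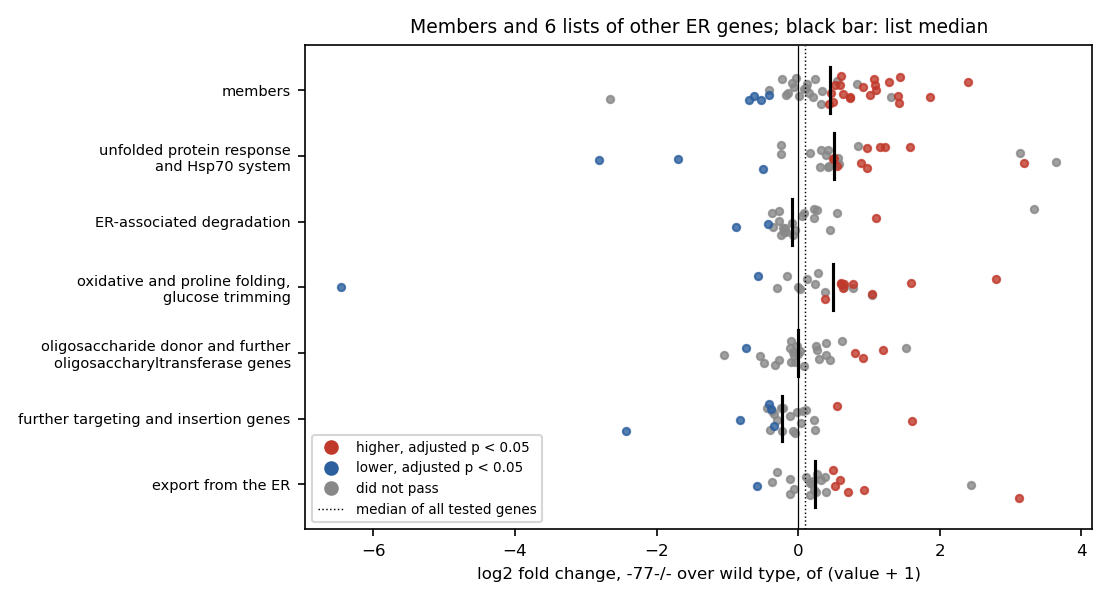
Log2 fold change (-77-/- over wild type, of value + 1) of the 44 members and of 6 lists of other ER genes, 1 point per tested gene, with red and blue for genes higher and lower at an adjusted p under 0.05 by limma and a black bar at each list's median. List medians run from -0.22 for targeting and insertion genes to 0.51 for the unfolded protein response list, and the dotted line at 0.10 is the median of all tested genes.

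The authors' deposited table gave an adjusted p for 43 of the 44 genes, all but Srp54a, and its calls matched those given here for these 43, with 20 higher and 4 lower. Among the 24 that passed, the log2 fold changes of the authors' deposited table differed from the ones given here by at most 0.0257. They differed more for Sec61g, at 0.05 in the authors' deposited table against 1.31 here, and for Srp54a, at -22.9 in the authors' deposited table against -2.65 here.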

How the data were processed

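Each library was built with a NuGEN Ovation kit for single cell RNA-seq, here from 10 ng of RNA, per the labels' protocols, and sequenced as single reads of 50 bases. STAR 2.5, RSEM 1.2.31, Bowtie, DESeq2 and build mm9 appear, without roles, in the submitters' processing notes. The sources used here do not give the annotation or the strand setting. The deposited signal of a gene in a library behaves as a read count over 1 size factor per library: apart from 8 rows with sideways-shifted cells, left out here, 100% of the deposited values in every library were whole multiples of 1 step (tolerance 0.01 read). A separate search that kept those rows did not find the step in 2 libraries, so tests on recovered counts are alternatives only. The authors' deposited log2 fold changes and their other test columns were used only for the calls compared at the end.

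Genotypes were tested on log2(value + 1) with limma 3.58.1 in R 4.3.3 (trend, robust, two-sided), over the 15821 of 19436 genes with a mean of at least 10 in the higher genotype. P-values were adjusted by Benjamini-Hochberg over all of these, with a threshold of 0.05. Fold changes are differences of mean log2 values, so for low or scattered genes they can be smaller or larger than the ratio of means, or differ from it in sign. The fit was also run on simulated data with far fewer changed genes than were called here, and no conclusion is drawn from that run. Counts recovered from the steps went into edgeR 4.0.16 (4735 genes called) and DESeq2 1.42.0 (5211 called) as alternatives; the others changed the pseudocount (0.1 or 5), the filter (none or 50), the normalization, the moderation, or left out 1 library. The members, role lists, pathway lists and marker lists were chosen with earlier results of these data known. Library values are printed for members that passed with an absolute log2 fold change of at least 0.5, for Xbp1, Atf6 and Ern1, and for up to 6 further members of highest mean. From the other lists, 7 set genes and up to 3 per direction are named, except for some that are not reported here. Pdia5, Spcs2, Sec61g and Srp54a fall outside these rules and were given library values after those were seen. Replicates carry numbers in accession order.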

Additional observations from a re-analysis of the deposited data

How the results depend on the processing

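No paired analysis was possible because the labels give no replicate numbers that link the genotypes. Over 16 alternatives 18 to 29 members passed, and no call of a gene described here changed direction. Without trend and robust moderation 18 members passed (16 higher, 2 lower), as did 25 of the other ER genes (19 higher, 6 lower). Under quantile normalization the median log2 fold change was 0.27 for the oligosaccharyltransferase and 1.04 for the lectin chaperones and disulfide isomerases. Leaving out 1 library gave medians of 0.89 to 0.99 for the latter group and 0.99 to 1.25 for the group of Ern1, Atf6 and Xbp1. In libraries of 16516338 to 20468899 reads counting error is small for most members, and 3 libraries per genotype limit the precision. Sec61g and Srp54a cannot be judged.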
